A study of Homo sapiens with 30 samples.

Results

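The 10 genes described here encode ligands and receptors of the tumour necrosis factor (TNF) family through which B cells receive BAFF, APRIL, CD40 and lymphotoxin signals, many of which reach the non-canonical NF-kB pathway. They were taken by symbol from the deposited tables and all 10 were found among the 60656 genes listed. The ligands are TNFSF13B (BAFF, a B cell survival factor), TNFSF13 (APRIL, its relative), LTA and LTB (the lymphotoxin subunits). The receptors are TNFRSF13B (TACI), TNFRSF13C (the BAFF receptor), TNFRSF17 (BCMA), CD40 (the receptor for the T cell ligand CD40LG), LTBR (the lymphotoxin beta receptor) and TNFRSF8 (CD30).

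In resting B cells a complex of TRAF3, TRAF2 and the ligases BIRC2 and BIRC3 keeps the kinase NIK, encoded by MAP3K14, low. Binding of BAFF to its receptor, of CD40 ligand to CD40 or of lymphotoxin to LTBR breaks up that complex, NIK accumulates, and the NFKB2 product p100 is processed to p52, which enters the nucleus with RELB. BAFF sustains naive B cells through its receptor, APRIL sustains plasma cells through BCMA, and CD40 drives the germinal centre response.

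RNA of human diffuse large B cell lymphoma lines was sequenced in 10 groups of 3 libraries. Doxorubicin, a topoisomerase II poison, was given at 0.2 µM for 24 h to OCI-LY3, HT, OCI-LY19 and SUDHL5, and each line was also harvested untreated at 0 h. OCI-LY19R, a doxorubicin-resistant derivative of OCI-LY19 grown in 20 nM of the drug up to 1 week before use, was set against OCI-LY19S, its drug-sensitive parent kept without drug. All lines are labelled wild type. The labels name 1 resistant derivative, and no line had an untreated library at 24 h, so drug and time in culture cannot be told apart. A lower level in such bulk RNA can come from fewer expressing cells or from less RNA per cell, and these cannot be told apart.

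Values are FPKM, reads scaled to gene length and library total, so levels of different genes can be compared. Library totals inferred from the FPKM steps were 16067405 to 38337869 reads in the 4 lines, 23782084 to 33439107 in OCI-LY19R, and 18354091, 20558372 and 121769119 in OCI-LY19S. At least 7 of 8 B cell markers averaged over 1 FPKM in every group. The SUDHL5 replicates differed by 1.92 to 5.2 times the sampling variance per gene against 6.62 to 91.55 in the other groups, so their spread may be technical. Differences were tested on log2(FPKM + 1) with limma, and p-values were adjusted over the whole table (Benjamini-Hochberg), with 0.05 as the threshold for a call. Only genes with at least 1 FPKM in at least 3 libraries of a table were tested. Of the 10 genes, 8 were tested in the 4 lines, all but TNFRSF13B and LTBR, and 4 in OCI-LY19R against OCI-LY19S.

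RefSeq promoter windows on GRCh38.p14, running 250 bases before to 50 after an annotated start, were on hand for 7 of the 10 genes. 1 window each of TNFSF13, LTA and LTB is shown, because these were the 3 genes with a match to the kappa B consensus, the binding sequence of NF-kB dimers, on either strand. Capitals mark the matches. Of 35116 windows of that length, 11.3% held a match, and 13.3% of 27305 genes had a match in any window. TNFSF13 and LTA each have a further window, from another start, with no match, and LTB has a nearly identical one. A match describes the letters and is not evidence of binding.
TNFSF13, chr17:7558032-7558331, plus strand, first match at -141 from the start: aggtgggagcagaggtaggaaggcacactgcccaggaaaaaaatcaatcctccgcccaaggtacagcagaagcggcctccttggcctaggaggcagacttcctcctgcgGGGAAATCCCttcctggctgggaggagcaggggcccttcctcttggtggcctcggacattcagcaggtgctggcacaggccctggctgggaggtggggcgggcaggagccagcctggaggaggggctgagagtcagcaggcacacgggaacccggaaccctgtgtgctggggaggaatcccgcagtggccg
LTB, chr6:31582375-31582674, minus strand, first match at -87: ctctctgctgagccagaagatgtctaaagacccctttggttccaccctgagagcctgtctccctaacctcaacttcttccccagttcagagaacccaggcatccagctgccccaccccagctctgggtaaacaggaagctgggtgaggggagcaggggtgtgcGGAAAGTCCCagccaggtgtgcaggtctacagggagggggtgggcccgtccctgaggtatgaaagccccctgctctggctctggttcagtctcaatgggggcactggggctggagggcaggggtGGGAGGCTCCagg
LTA, chr6:31572039-31572338, plus strand, 2 overlapping matches from -104: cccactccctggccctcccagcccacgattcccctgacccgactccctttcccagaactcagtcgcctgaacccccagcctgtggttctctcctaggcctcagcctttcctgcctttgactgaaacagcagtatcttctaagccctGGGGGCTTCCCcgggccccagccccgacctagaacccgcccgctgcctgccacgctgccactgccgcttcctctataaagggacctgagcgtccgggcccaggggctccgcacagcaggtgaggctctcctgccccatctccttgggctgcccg
TNFSF13 and LTB rose with doxorubicin in OCI-LY3, while LTA, which lies beside LTB, passed in no line. The windows of TNFSF13B, TNFRSF13B, LTBR and TNFRSF8 held no such letters, though TNFRSF8 rose with doxorubicin in SUDHL5. No window was on hand for TNFRSF13C, TNFRSF17 and CD40, which hold many of the changes described below. Whether a match goes with a response was not tested.

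Before any drug the 4 lines carried different sets of these genes. SUDHL5 had the most lymphotoxin and CD30 mRNA, OCI-LY3 the most BCMA, HT the most APRIL and BAFF receptor, and OCI-LY19 was the line with BAFF. All 8 genes tested differed in level among the untreated lines (limma moderated F test, adjusted p = 6.67e-14 to 4.3e-08), where 90.5% of all genes did. BAFF reached 1 FPKM only in OCI-LY19 and CD30 only in SUDHL5. Each passed the filter through that line alone, which favours a level difference. With no filter both still differed (F test, adjusted p = 1.14e-11 and 2.23e-13). Taken by pairs of untreated lines, 62.1% of all genes differed in OCI-LY3 against HT, 62.8% in OCI-LY3 against OCI-LY19, 66% in OCI-LY3 against SUDHL5, 64.4% in HT against OCI-LY19, 67% in HT against SUDHL5 and 71% in OCI-LY19 against SUDHL5.

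**Figure D1:**
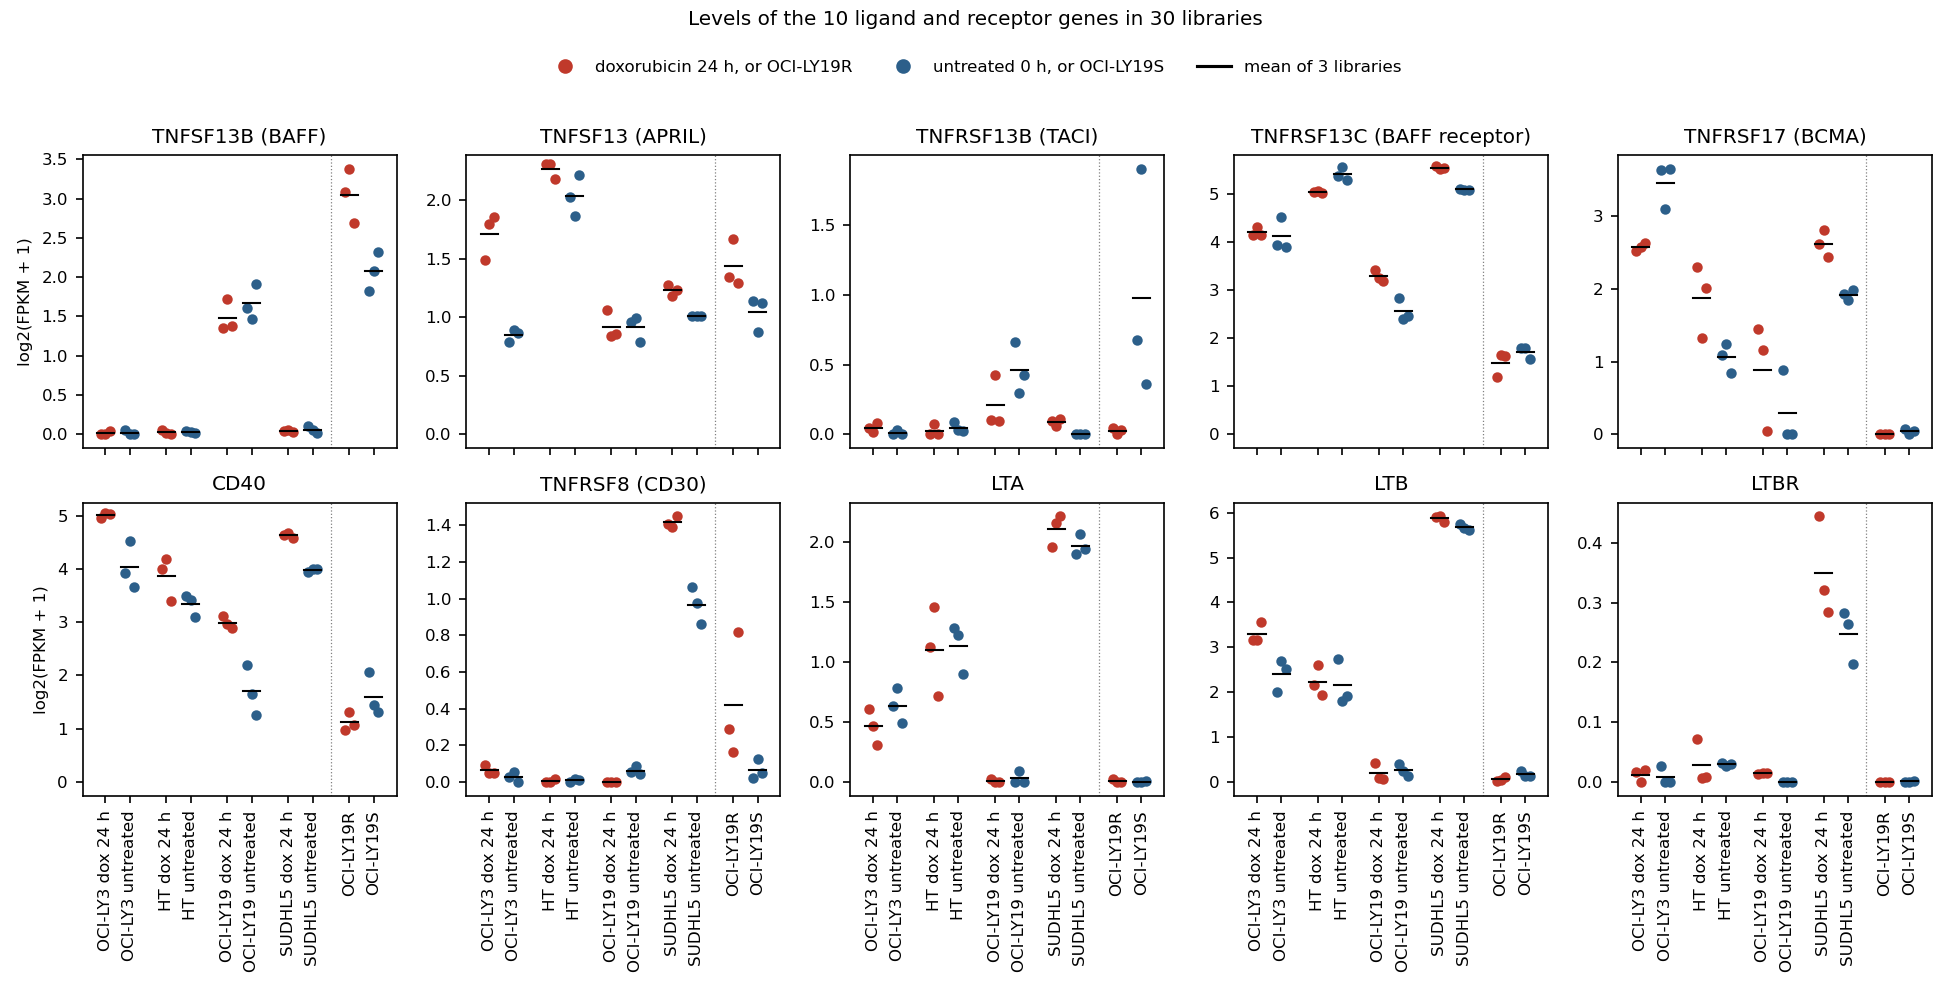
Level of each gene in every library, as log2(FPKM + 1), with a separate vertical scale per gene. Points are libraries, red for doxorubicin at 24 h and for OCI-LY19R, blue for untreated cells and for OCI-LY19S, and bars are means of 3. BAFF is near 0 outside OCI-LY19, CD40 is higher in treated cells of each line on average, and LTBR stays near 0 outside SUDHL5. The dotted line parts the 2 tables, which were normalized separately.

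BAFF (TNFSF13B, ENSG00000102524.11, chr13:108251240-108308484, plus strand) had 2.06, 1.76 and 2.78 FPKM in untreated OCI-LY19. In the untreated libraries of OCI-LY3, HT and SUDHL5 it had 0 to 0.0745 FPKM, from 3, 5 and 10 reads per line. These 3 lines did not differ from each other beyond their spread (adjusted p = 0.731 to 0.934). OCI-LY3 and HT differed from OCI-LY19 by -1.65 and -1.63 on the log2 scale, and OCI-LY19 exceeded SUDHL5 by 1.61. APRIL (TNFSF13, ENSG00000161955.16, chr17:7558292-7561608, plus strand) averaged 3.11 ± 0.495 FPKM in untreated HT (SD, n = 3). It averaged 1.02 ± 0.00488 in SUDHL5, 0.889 ± 0.144 in OCI-LY19 and 0.799 ± 0.0676 in OCI-LY3, and no pair among these 3 passed.

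The BAFF receptor (TNFRSF13C, ENSG00000159958.7, chr22:41922023-41926818, minus strand) averaged 41.8 ± 4.02 FPKM in HT, 33.4 ± 0.234 in SUDHL5, 16.8 ± 4.47 in OCI-LY3 and 4.99 ± 1.05 in OCI-LY19. Every neighbouring pair in that order differed, HT and SUDHL5 with the highest adjusted p (0.0377). The gene holds MIR378I, listed at 0 in all libraries. BCMA (TNFRSF17, ENSG00000048462.11, chr16:11965107-11968068, plus strand), a receptor of late B cells and plasma cells, averaged 10.1 ± 2.25 FPKM in OCI-LY3. It averaged 2.78 ± 0.185 in SUDHL5, 1.10 ± 0.284 in HT and 0.279 ± 0.484 in OCI-LY19, and again each neighbouring pair differed. TACI (TNFRSF13B, ENSG00000240505.9, chr17:16929816-16972118, minus strand) was read 126 times in untreated OCI-LY19, at 0.582, 0.231 and 0.345 FPKM. It was read 9 times in HT, 2 times in OCI-LY3 and 0 times in SUDHL5, where 3 reads would be 0.0321 to 0.0346 FPKM.

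CD40 (ENSG00000101017.14, chr20:46118272-46129863, plus strand) had 14.2, 22.0 and 11.7 FPKM in OCI-LY3 and averaged 14.8 ± 0.338 in SUDHL5, a pair that did not pass (adjusted p = 0.848). HT followed with 9.14 ± 1.39 and OCI-LY19 with 2.37 ± 1.09, each below the line before it. LTB (ENSG00000227507.3, chr6:31580525-31582522, minus strand), the membrane-bound lymphotoxin subunit, averaged 50.2 ± 2.26 FPKM in SUDHL5. It had 4.38 ± 1.26 in OCI-LY3 and 3.66 ± 1.76 in HT (adjusted p = 0.349 between them) and 0.197 ± 0.108 in OCI-LY19. LTA (ENSG00000226979.9, chr6:31572054-31574324, plus strand) kept the same first and last lines, with 2.92 ± 0.243 FPKM in SUDHL5, 1.21 ± 0.303 in HT, 0.558 ± 0.157 in OCI-LY3 and 0.0225 ± 0.0389 in OCI-LY19. Neighbours in that order all differed.

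CD30 (TNFRSF8, ENSG00000120949.15, chr1:12063377-12144207, plus strand), an activation receptor of lymphocytes, reached 1.09, 0.971 and 0.818 FPKM in SUDHL5. In the other untreated lines it was at most 0.0614 FPKM, with no difference beyond their spread. LTBR (ENSG00000111321.11, chr12:6375045-6391571, plus strand), which stromal and epithelial cells usually carry, had 0.216, 0.201 and 0.147 FPKM in untreated SUDHL5. It had at most 0.0224 FPKM in the other untreated lines and 0 reads in OCI-LY19, where 3 reads would be 0.0138 to 0.0190 FPKM. LTBR shares 422 exon bases with SCNN1A on the opposite strand, and whether the counting used strand is not given in the sources used here.

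After doxorubicin, CD40 rose in OCI-LY3, OCI-LY19 and SUDHL5. APRIL and LTB rose in OCI-LY3, the BAFF receptor rose in OCI-LY19 and SUDHL5 and fell in HT, and BCMA fell in OCI-LY3 and rose in HT. CD30 rose in SUDHL5. BAFF and LTA passed in no line. In OCI-LY3, 4 of 8 tested genes passed (3 higher, 1 lower), where 54.7% of all genes did (40.4% higher, 14.3% lower). In HT 2 of 8 passed (1 higher, 1 lower) against 32.3% of all genes (22.9% higher, 9.41% lower). In OCI-LY19 2 of 8 passed, both higher, against 58.2% (34.5% higher, 23.7% lower). In SUDHL5 3 of 8 passed, all higher, against 38.5% (18.6% higher, 19.9% lower). The share called in either direction was near or below that of all genes in each line. The responses of 5 of the 8 differed among the lines, where 72.2% of all genes did. By pairs of lines, the response of all genes differed in 29.4% for OCI-LY3 minus HT, 47.7% for OCI-LY3 minus OCI-LY19, 49.4% for OCI-LY3 minus SUDHL5, 45.2% for HT minus OCI-LY19, 37% for HT minus SUDHL5 and 43.9% for OCI-LY19 minus SUDHL5. The all-gene median was 0.16 above untreated cells in OCI-LY3 and at most 0.08 in the other lines. The upward share of all calls was 73.9% in OCI-LY3, 70.9% in HT and 59.3% in OCI-LY19, against 51.5%, 55.9% and 51.9% with median-of-ratios scaling and 50.9%, 52.2% and 44.7% with quantile normalization. In every line the summed level of at least 1 marker list moved with the drug without overlap. The 6 myeloid markers, LYZ highest, summed to 20.0 to 33.2 FPKM in treated and 5.98 to 9.83 in untreated OCI-LY19, and to 5.30 to 6.23 in treated and 0.299 to 0.466 in untreated SUDHL5. Of the 6, 3 averaged over 1 FPKM in treated and 2 in untreated OCI-LY19, 2 in treated and 0 in untreated SUDHL5, and FCGR3A was at 0 in both untreated groups. The 8 T and NK cell markers summed to 21.6 to 23.6 FPKM in treated and 11.9 to 13.4 in untreated SUDHL5, with 5 and 3 of them over 1 FPKM, GNLY and KLRD1 at 0 in treated cells and CD2 at 0 in untreated cells. Those T and NK cell markers summed to 16.8 to 18.4 FPKM in treated and 22.1 to 25.3 in untreated HT. CD247 made up most of that sum, with means of 15.66 in treated and 22.92 in untreated HT. The other markers did not share its fall: 2 of the 8 averaged over 1 FPKM in treated and 1 in untreated HT. CD2 was at 0 in both HT groups, and CD3D and KLRD1 in untreated HT only. In OCI-LY19 the list summed to 4.92 to 7.11 in treated and 10.5 to 13.99 in untreated cells, with NKG7 highest in both. In OCI-LY19 CD3D, CD3E and CD3G were at 0 in both groups. The 7 stromal, epithelial and endothelial markers summed to 1.87 to 2.51 FPKM in treated and 3.799 to 5.64 in untreated OCI-LY3, with COL1A2 at 0 in both. They summed to 15.4 to 16.3 in treated and 8.70 to 8.87 in untreated SUDHL5. DCN was the highest of them, at means of 1.102 in treated and 3.862 in untreated OCI-LY3, and 11.15 in treated and 6.663 in untreated SUDHL5. The 8 B cell markers summed to 1064 to 1246 FPKM in treated and 1888 to 2208 in untreated OCI-LY3, to 1139 to 1195 in treated and 1334 to 1392 in untreated HT, and to 2590 to 2675 in treated and 1770 to 1796 in untreated SUDHL5. CD79A averaged 454.5 FPKM in treated and 634 in untreated HT, and CD74 1375 in treated and 741.7 in untreated SUDHL5. Single markers thus weigh heavily in these sums. The part of the marker lists in the changes was not tested.

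**Figure D2:**
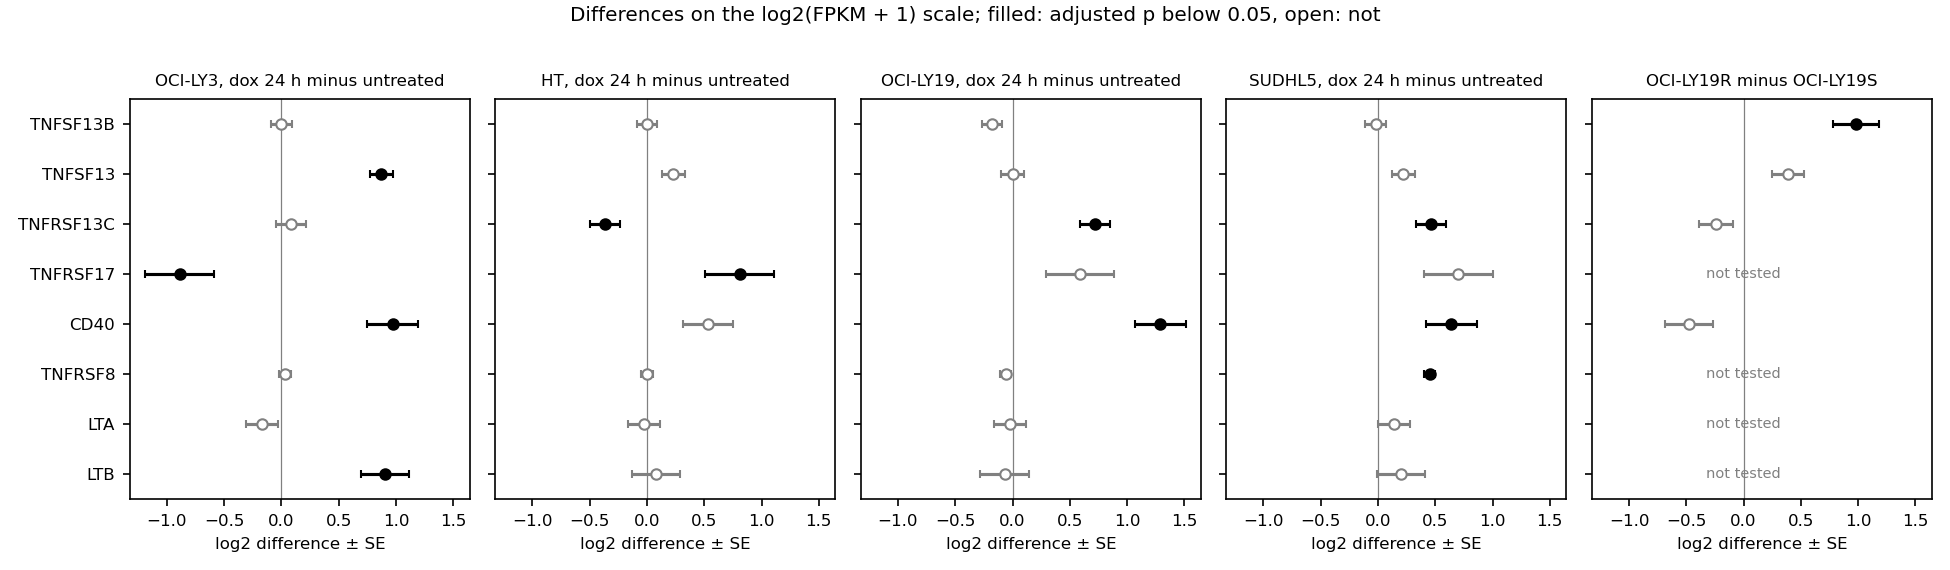
Difference of each tested gene on the log2(FPKM + 1) scale, with its standard error, in the 4 doxorubicin comparisons and in OCI-LY19R against OCI-LY19S. Filled points passed at an adjusted p below 0.05. CD40 lies right of 0 in all 4 lines, from 0.53 in HT to 1.29 in OCI-LY19, and left of 0 in OCI-LY19R.

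CD40 had 30.2, 31.9 and 31.7 FPKM in treated OCI-LY3, against 14.2, 22.0 and 11.7 untreated. The groups did not overlap and CD40 rose by 0.97 ± 0.22 (log2 ± SE, adjusted p = 0.00074). In OCI-LY19 it had 7.61, 6.85 and 6.40 FPKM after the drug, against 3.55, 2.15 and 1.40 without. The change of 1.29 ± 0.22 (adjusted p = 3.83e-05), or 2.94 times in mean FPKM, was again free of overlap. SUDHL5 had 23.8, 24.7 and 22.8 FPKM treated and 14.4, 15.1 and 15.0 untreated, a rise of 0.64 ± 0.22 (adjusted p = 0.0225).

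The SUDHL5 call for CD40 did not hold without untreated replicate 1 or 3 (adjusted p = 0.0599 and 0.0509), without treated replicate 1 or 2 (0.0537 and 0.0628), or with no filter on low genes (0.0521). HT had 14.9, 17.3 and 9.59 FPKM in treated cells and 10.2, 9.69 and 7.56 in untreated cells, which overlap. Its difference of 0.53 ± 0.22 missed the threshold (adjusted p = 0.0674). It passed with the replicate number as a block (adjusted p = 0.0214), with voom (adjusted p = 0.0408) and without treated replicate 3 (0.76, adjusted p = 0.0143), the lowest of the treated libraries. Whether CD40 responded by different amounts in the 4 lines was tested directly and did not pass (F test, adjusted p = 0.113). That test passed with the replicate block (0.0313), with voom (0.0323), with voom on genes of at least 10 reads (0.0414), and without untreated OCI-LY3 replicate 2 (0.0342) or untreated OCI-LY19 replicate 1 (0.0183). HT minus OCI-LY19 was the single pair of the 6 that passed (-0.76 ± 0.30, adjusted p = 0.0495).

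APRIL responded in OCI-LY3 more than in any of the other lines. It had 1.81, 2.47 and 2.61 FPKM in treated OCI-LY3, against 0.722, 0.849 and 0.825 untreated. The groups stood apart and APRIL rose by 0.87 ± 0.10 (adjusted p = 2.99e-07), 2.88 times in mean FPKM. The responses differed among the lines (F test, adjusted p = 9.18e-05). OCI-LY3 exceeded HT by 0.64 ± 0.14 (adjusted p = 0.0015), OCI-LY19 by 0.86 ± 0.14 (adjusted p = 3.01e-05) and SUDHL5 by 0.65 ± 0.14 (adjusted p = 0.000533).

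In SUDHL5 APRIL had 1.41, 1.26 and 1.35 FPKM treated and 1.02, 1.02 and 1.01 untreated, a difference that missed the threshold (0.22 ± 0.10, adjusted p = 0.0831). HT had 3.94, 3.93 and 3.52 FPKM treated and 3.07, 2.64 and 3.63 untreated (0.23 ± 0.10, adjusted p = 0.078; 0.0231 without untreated replicate 3). OCI-LY19 averaged 0.894 ± 0.162 FPKM treated and 0.889 ± 0.144 untreated (0.00 ± 0.10, adjusted p = 0.993), and quantile normalization turned this to -0.31 (adjusted p = 0.00919). APRIL shares 1263 exon bases on the same strand with the readthrough gene TNFSF12-TNFSF13, which was listed at 0 in all libraries. How the counting assigned reads from shared bases is not given in the sources used here, so its level is uncertain.

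BAFF stayed at the floor of detection in 3 lines, with 2 and 3 reads in treated and untreated OCI-LY3, 4 and 5 in HT, and 7 and 10 in SUDHL5. In OCI-LY19 it had 1.55, 2.29 and 1.61 FPKM treated and 2.06, 1.76 and 2.78 untreated, and these overlap (-0.18 ± 0.09, adjusted p = 0.104). The difference passed without untreated replicate 2 (-0.28, adjusted p = 0.0149) or treated replicate 2 (-0.30, adjusted p = 0.00618), and with median-of-ratios scaling (-0.25, adjusted p = 0.0318) or quantile normalization (-0.49, adjusted p = 0.000653).

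The BAFF receptor moved in opposite directions in HT and in 2 other lines. OCI-LY19 had 9.69, 8.61 and 8.13 FPKM in treated cells, against 6.19, 4.27 and 4.52 in untreated cells, a rise of 0.72 ± 0.13 (adjusted p = 7.17e-05) with no overlap. SUDHL5 had 47.3, 45.0 and 46.2 FPKM treated and 33.7, 33.3 and 33.2 untreated, a rise of 0.46 ± 0.13 (adjusted p = 0.00767), also with no overlap. HT had 32.0, 32.5 and 31.6 FPKM treated and 40.6, 46.3 and 38.6 untreated, so that all treated libraries lay below all untreated ones.

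In HT the BAFF receptor fell by 0.37 ± 0.13 on the log2 scale (adjusted p = 0.0321, or 0.00668 with the replicate block). The HT call was lost without untreated replicate 1 (adjusted p = 0.0596) or 2 (0.134), without treated replicate 1 (0.0714), 2 (0.0557) or 3 (0.0811), with no filter (0.0723) and with quantile normalization (0.0546). OCI-LY3 had 16.9, 18.9 and 16.8 FPKM treated and 14.4, 22.0 and 14.1 untreated (0.08 ± 0.13, adjusted p = 0.631). Without untreated replicate 2, its high library, OCI-LY3 gave 0.28 (adjusted p = 0.0272). The responses of the lines differed (F test, adjusted p = 0.000159). HT minus OCI-LY19 was -1.09 ± 0.18 (adjusted p = 6.32e-05), and HT minus SUDHL5 was -0.83 ± 0.18 (adjusted p = 0.00129).

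BCMA fell in OCI-LY3, the line with most of it, to 4.70, 4.92 and 5.16 FPKM in treated cells, against 11.3, 7.54 and 11.5 in untreated cells. The groups did not overlap (-0.89 ± 0.30, adjusted p = 0.0166). The call was lost without untreated replicate 1 (adjusted p = 0.0582) or 3 (0.06), with a pseudocount of 0.1 (0.304) and with voom on genes of at least 10 reads (0.0625). In HT BCMA had 3.92, 1.49 and 3.01 FPKM treated and 1.13, 1.37 and 0.801 untreated, without overlap, a rise of 0.81 ± 0.30 (adjusted p = 0.0445, or 0.0216 with the replicate block).

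The rise in HT rested on few reads, 212 treated and 86 untreated. It was lost under all but 3 of its 16 alternatives, among them leaving out untreated replicate 1 (adjusted p = 0.0883), 2 (0.0567) or 3 (0.134), or treated replicate 1 (0.196) or 3 (0.124). SUDHL5 had 5.11, 5.99 and 4.42 FPKM treated and 2.81, 2.58 and 2.95 untreated, without overlap, but the difference of 0.70 ± 0.30 missed the threshold (adjusted p = 0.073). It passed with the replicate block (0.0355), quantile normalization (0.0449) and SUDHL5 fitted alone (0.00307). The last of these fits rests on the spread of the SUDHL5 replicates, which may be technical. OCI-LY19 was uneven, at 1.73, 1.22 and 0.0313 FPKM treated and 0.838, 0 and 0 untreated (0.59 ± 0.30, adjusted p = 0.101). It passed without treated replicate 3 (1.01, adjusted p = 0.0033) or untreated replicate 1 (0.88, adjusted p = 0.0201). The BCMA responses differed among the lines (F test, adjusted p = 0.00399, but 0.15 with a pseudocount of 0.1). The response of OCI-LY3 was the lowest, at -1.70 ± 0.42 minus that of HT (adjusted p = 0.00506), -1.48 ± 0.42 minus that of OCI-LY19 (adjusted p = 0.00705) and -1.59 ± 0.42 minus that of SUDHL5 (adjusted p = 0.0041).

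TACI was below the filter in the 4 lines. In OCI-LY19 it was read 56 times in treated cells, at 0.0742, 0.341 and 0.0715 FPKM, and 126 times in untreated cells, and the libraries overlap. In SUDHL5 it was read 16 times in treated cells and 0 times in untreated cells. With voom on genes of at least 10 reads, an alternative added after the data were seen, both differences passed (adjusted p = 0.02 in OCI-LY19 and 0.00304 in SUDHL5). With no filter TACI passed in OCI-LY19 (-0.25 ± 0.08, adjusted p = 0.0135) but not in SUDHL5 (0.09 ± 0.08, adjusted p = 0.593). TACI shares 615 exon bases on the same strand with the pseudogene TBC1D27P.

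LTB rose in OCI-LY3, with 7.93, 8.02 and 10.9 FPKM in treated cells, against 2.99, 5.45 and 4.69 in untreated cells, and with no overlap (0.90 ± 0.21, adjusted p = 0.00133). In SUDHL5, where LTB is abundant, it had 58.5, 59.9 and 54.9 FPKM treated and 52.7, 49.5 and 48.3 untreated. Those libraries also stood apart, but the difference was small and missed the threshold (0.20 ± 0.21, adjusted p = 0.521). HT averaged 3.79 ± 1.16 FPKM treated and 3.66 ± 1.76 untreated (0.08 ± 0.21, adjusted p = 0.862), and OCI-LY19 was read 23 and 28 times.

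The LTB responses differed among the lines (F test, adjusted p = 0.0323), with OCI-LY3 above HT by 0.82 ± 0.30 (adjusted p = 0.0465) and above OCI-LY19 by 0.97 ± 0.30 (adjusted p = 0.0123), while OCI-LY3 minus SUDHL5 missed the threshold (0.70 ± 0.30, adjusted p = 0.0613). The F test was lost without untreated OCI-LY3 replicate 1 (adjusted p = 0.125), treated OCI-LY3 replicate 3 (0.11), untreated OCI-LY19 replicate 1 (0.0522), or treated OCI-LY19 replicate 2 (0.051) or 3 (0.0536). It was also lost with a pseudocount of 0.1 (0.117), no filter (0.0718), median-of-ratios scaling (0.106), voom (0.0613) and voom on genes of at least 10 reads (0.0858). LTA, the secreted subunit, overlapped between treated and untreated libraries in every line. It averaged 3.33 ± 0.395 FPKM in treated SUDHL5 and 2.92 ± 0.243 untreated (0.14 ± 0.14, adjusted p = 0.483), 1.19 ± 0.549 and 1.21 ± 0.303 in treated and untreated HT, and 0.382 ± 0.142 and 0.558 ± 0.157 in treated and untreated OCI-LY3. With quantile normalization LTA was lower in treated OCI-LY3 (-0.49, adjusted p = 0.00296).

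CD30 rose in SUDHL5, with 1.65, 1.63 and 1.73 FPKM in treated cells, against 1.09, 0.971 and 0.818 in untreated cells (0.45 ± 0.05, adjusted p = 8.67e-07). The responses differed among the lines (F test, adjusted p = 1.42e-05). The SUDHL5 response exceeded those of the other lines, with OCI-LY3, HT and OCI-LY19 minus SUDHL5 at -0.42, -0.45 and -0.51 on the log2 scale (each ± 0.07). CD30 was near 0 in those 3 lines, so it passed the filter through SUDHL5, chiefly its treated libraries. With no filter CD30 still rose in SUDHL5 (limma, adjusted p = 2.05e-07). In OCI-LY19 it was read 0 times in treated cells and 14 times in untreated cells, a difference that did not pass (adjusted p = 0.332) but did with voom on recovered reads (adjusted p = 0.000155). LTBR in SUDHL5 had 0.362, 0.249 and 0.219 FPKM treated and 0.216, 0.201 and 0.147 untreated, from 127 and 89 reads. It was under the filter, and with no filter it passed (0.10 ± 0.03, adjusted p = 0.0195) while with voom on genes of at least 10 reads it did not (adjusted p = 0.362).

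OCI-LY19R carried more BAFF mRNA than OCI-LY19S. BAFF had 7.50, 9.42 and 5.43 FPKM in OCI-LY19R, against 2.55, 3.21 and 4.01 in OCI-LY19S. Every resistant library lay above every parental one, and BAFF rose by 0.98 ± 0.20 (adjusted p = 0.0408), 2.29 times in mean FPKM. It was the single gene of 4 tested that passed, where 5.44% of all genes did (3.11% higher, 2.34% lower). The upward share of all calls was 57%, but 44.9% after median-of-ratios scaling and 47% when libraries were quantile normalized. The authors' deposited table gives a log2 fold change of 1.10 for BAFF, OCI-LY19R over OCI-LY19S, with an adjusted p of 0.000213.

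The BAFF call was lost on leaving out any of the 6 libraries, with adjusted p = 0.101, 0.15 and 0.0564 without OCI-LY19R replicate 1, 2 or 3 and 0.0587, 0.126 and 0.059 without OCI-LY19S replicate 1, 2 or 3. It was also lost with no filter (0.147) and with quantile normalization (0.0586). The difference stayed between 0.81 and 1.16 without each library. Myeloid marker genes, which include genes of monocytes, a known source of BAFF, were present. The 6 markers summed to 10.3 to 26.3 FPKM in OCI-LY19R and 6.84 to 15.5 in OCI-LY19S. CSF1R was the highest of them in both groups, 3 of the 6 averaged over 1 FPKM in each, and FCGR3A was at 0 in OCI-LY19S. Their part in the BAFF difference was not tested.

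**Figure D3:**
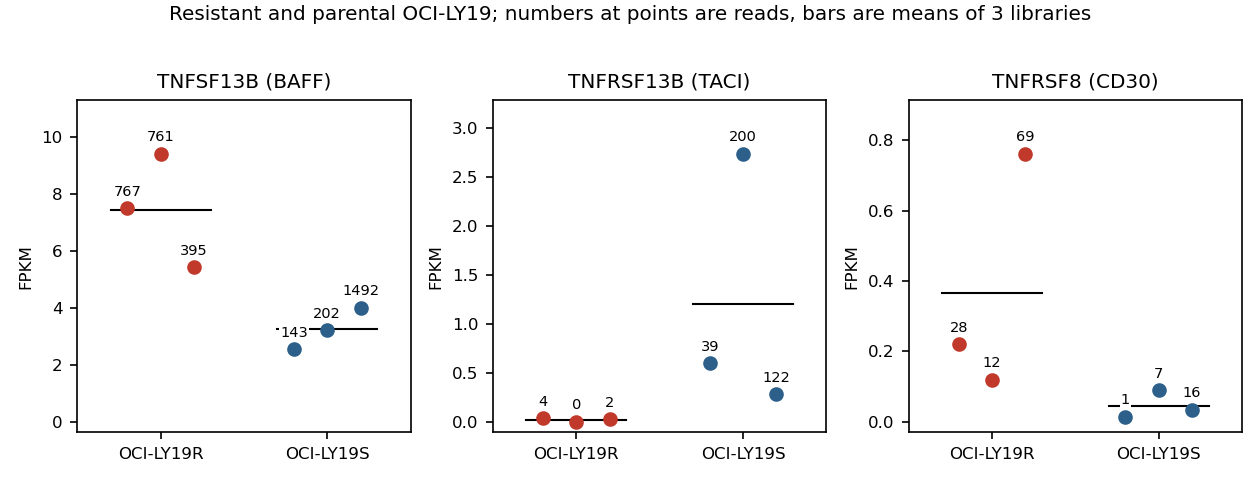
FPKM of BAFF, TACI and CD30 in each OCI-LY19R and OCI-LY19S library, with the recovered reads printed at the points and bars at the means of 3. The resistant libraries lie above the parental ones for BAFF and CD30 and below them for TACI, which has 6 reads in OCI-LY19R against 361 in OCI-LY19S.

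TACI, a receptor of BAFF and APRIL, was nearly absent from OCI-LY19R, with 4, 0 and 2 reads (0.0337, 0 and 0.0237 FPKM), against 39, 200 and 122 reads in OCI-LY19S (0.598, 2.74 and 0.282 FPKM). The groups did not overlap, and 1 parental library held most of the level. CD30 ran the other way, with 28, 12 and 69 reads in OCI-LY19R (0.220, 0.119 and 0.761 FPKM), against 1, 7 and 16 in OCI-LY19S (0.0143, 0.0893 and 0.0345 FPKM). These did not overlap either, and 1 resistant library stood well above the rest. Both genes were under the filter. The 8 B cell markers summed to 658.9 to 843.6 FPKM in OCI-LY19R and 447.3 to 588.2 in OCI-LY19S. CD74 alone averaged 486.4 FPKM in OCI-LY19R and 180.7 in OCI-LY19S, so the higher sum does not hold for the other markers. The part of these markers in the differences was not tested.

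With the same voom alternative, TACI had -4.84 ± 1.76 (adjusted p = 0.153) and CD30 2.77 ± 0.78 (adjusted p = 0.0725). Neither passed, nor did they with no filter (adjusted p = 0.391 and 0.448). The authors' deposited table lists TACI at -6.02 (adjusted p = 0.000229) and CD30 at 2.96 (adjusted p = 0.00245) on the log2 scale, both past 0.05.

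The receptors for CD40 ligand and BAFF did not pass in OCI-LY19R against OCI-LY19S. CD40 had 0.973, 1.49 and 1.10 FPKM in OCI-LY19R, against 3.16, 1.72 and 1.48 in OCI-LY19S, which overlap (-0.48 ± 0.21, adjusted p = 0.222). The authors' deposited table has -0.88 for CD40 (adjusted p = 0.0511). The BAFF receptor had 1.28, 2.13 and 2.09 FPKM in OCI-LY19R and 2.47, 2.50 and 1.96 in OCI-LY19S (-0.24 ± 0.15, adjusted p = 0.396). APRIL had 1.54, 2.18 and 1.44 FPKM in OCI-LY19R and 1.20, 0.833 and 1.17 in OCI-LY19S (0.39 ± 0.14, adjusted p = 0.16). Its libraries did not overlap, but the difference missed the threshold. LTB was read 5 times in OCI-LY19R and 26 times in OCI-LY19S, BCMA 0 and 5 times, LTA 1 time in each group, and LTBR 0 times and 1 time.

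NFKB2 and RELB, of the relay below these receptors, rose in treated cells of OCI-LY3, HT and OCI-LY19. Of 11 relay genes, 8 rose and 0 fell in OCI-LY3, 5 rose and 0 fell in HT, 7 rose and 2 fell in OCI-LY19, and 3 rose and 1 fell in SUDHL5. The all-gene shares called higher were 40.4%, 22.9%, 34.5% and 18.6% in OCI-LY3, HT, OCI-LY19 and SUDHL5, and those called lower were 14.3%, 9.41%, 23.7% and 19.9%. The relay genes' median log2 change was 0.52, 0.27, 0.34 and 0.10 in these lines, where that of all genes was 0.16, 0.06, 0.08 and 0.00. The relay genes named here are those with a change of at least 1. Under median-of-ratios scaling the OCI-LY3 count was 5 up and 2 down, and in HT 3 rose. That scaling gave 5 up and 2 down in OCI-LY19, and 4 up and 1 down in SUDHL5. With quantile normalization the OCI-LY19 count was again 5 up and 2 down, with a median of 0.11. NFKB2, the p100 precursor, rose by 1.79 ± 0.14 in OCI-LY3, 1.32 ± 0.14 in HT and 1.45 ± 0.14 in OCI-LY19, and RELB by 1.62 ± 0.13, 1.27 ± 0.13 and 1.49 ± 0.13 (adjusted p = 3.67e-09 to 1.45e-06 over the 6 values). In SUDHL5, which began with 57.4 ± 1.17 FPKM of NFKB2 and 36.8 ± 0.371 of RELB untreated, they differed by 0.19 and 0.33 and did not pass.

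TRAF1, an adaptor that NF-kB induces, rose by 2.40 ± 0.22 in OCI-LY19 and 1.57 ± 0.22 in OCI-LY3 (adjusted p = 1.66e-08 and 4.92e-06). BIRC3, a ligase of the complex that restrains NIK, had 3.12 ± 1.18 FPKM in treated OCI-LY19 and 0.117 ± 0.0448 untreated (1.84 ± 0.18, adjusted p = 5.28e-08), and rose by 1.07 ± 0.18 in OCI-LY3 and 1.01 ± 0.18 in HT. TRAF5, an adaptor of CD40 and LTBR, fell to 4.89 ± 0.142 FPKM in treated SUDHL5, against 11.8 ± 0.511 untreated (-1.12 ± 0.11, adjusted p = 8.03e-08). MAP3K14, TRAF3, BIRC2 and TRAF2 are added for their place in the NIK complex, after their values were seen. MAP3K14 rose in OCI-LY3, OCI-LY19 and SUDHL5 by 0.34 to 0.74, and TRAF3 passed in no line. BIRC2 rose by 0.52 in OCI-LY3, 0.29 in HT, 0.57 in OCI-LY19 and 0.78 in SUDHL5. TRAF2 passed in OCI-LY3 (0.23) and in OCI-LY19 (-0.58), and its sign in OCI-LY3 turned round with median-of-ratios scaling.

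**Figure D4:**
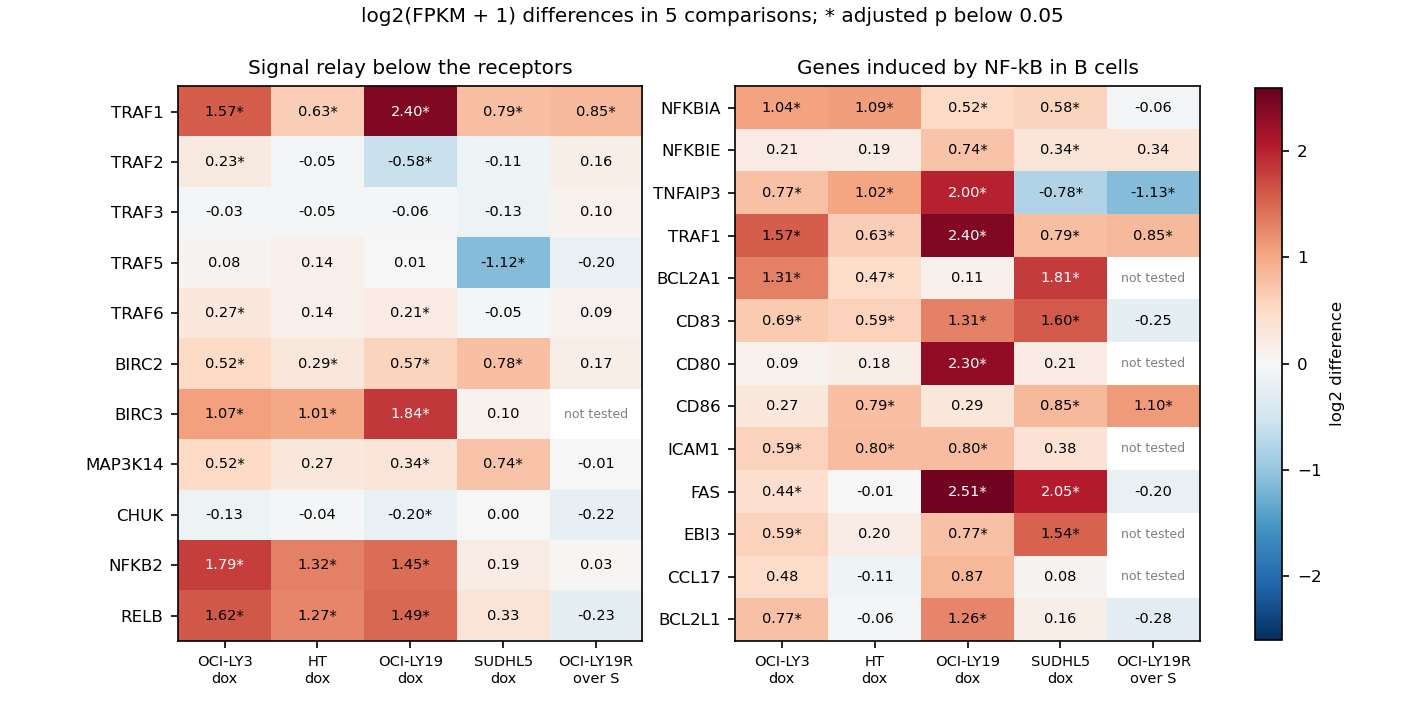
log2(FPKM + 1) differences of relay genes (left) and of genes known to be induced by NF-kB in stimulated B cells (right) in 5 comparisons, with an asterisk where the adjusted p is below 0.05. NFKB2 and RELB are red in OCI-LY3, HT and OCI-LY19 and pale in SUDHL5, and TNFAIP3 is blue in SUDHL5 and in OCI-LY19R.

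Genes known to be induced by NF-kB after CD40 or BAFF stimulation included several that rose in treated cells. Of 13 tested, 9 rose and 0 fell in OCI-LY3, 7 rose and 0 fell in HT, 10 rose and 0 fell in OCI-LY19, and 8 rose and 1 fell in SUDHL5. The shares of all genes that rose were 40.4%, 22.9%, 34.5% and 18.6% in these lines. The medians of the 13 were 0.59, 0.47, 0.87 and 0.58, beside 0.16, 0.06, 0.08 and 0.00 for all genes. Under median-of-ratios scaling 7, 6, 10 and 9 rose in these lines, and with quantile normalization 8, 6, 9 and 8. NFKBIA, the inhibitor of canonical NF-kB, rose in all 4 lines by 0.52 to 1.09. BCL2A1, a survival gene of the BCL2 family, rose by 1.81 ± 0.15 in SUDHL5 and 1.31 ± 0.15 in OCI-LY3. CD83, a surface marker of activated B cells, rose by 1.60 ± 0.13 in SUDHL5 and 1.31 ± 0.13 in OCI-LY19. CD80, a costimulatory ligand, had 5.92 ± 1.16 FPKM in treated OCI-LY19 and 0.402 ± 0.192 untreated (2.30 ± 0.11, adjusted p = 3.24e-12). FAS, a death receptor that p53 also induces, rose by 2.51 ± 0.08 in OCI-LY19 and 2.05 ± 0.08 in SUDHL5. BCL2L1, which encodes the survival protein BCL-XL, rose by 1.26 ± 0.12 in OCI-LY19. EBI3, a cytokine subunit, averaged 1.93 ± 0.484 FPKM in treated SUDHL5 and was listed at 0 in all untreated SUDHL5 libraries (adjusted p = 3.81e-05). In OCI-LY3 it averaged 1.12 ± 0.449 FPKM treated and 0.504 ± 0.766 untreated. EBI3 thus passed the filter mainly through treated libraries, which favours a rise. TNFAIP3, the inhibitor A20, rose by 1.02 ± 0.12 in HT and had 39.0 ± 3.96 FPKM in treated OCI-LY19 and 9.06 ± 1.54 untreated (adjusted p = 3.75e-11), but fell in SUDHL5 to 4.07 ± 0.191 FPKM in treated cells, against 7.72 ± 0.581 untreated (adjusted p = 2.53e-05).

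In OCI-LY19R against OCI-LY19S, 1 of 10 relay genes and 3 of 8 induced genes passed, where 5.44% of all genes did. The relay gene was TRAF1, which rose by 0.85 ± 0.12 (adjusted p = 0.0165) and counts in both lists. CD86, a costimulatory ligand, had 1.60 ± 0.436 FPKM in OCI-LY19R and 0.207 ± 0.108 in OCI-LY19S (1.10 ± 0.15, adjusted p = 0.015). With means of 0.853 and 0.207 FPKM in OCI-LY19S, TRAF1 and CD86 passed the filter through OCI-LY19R. Both counts thus depend in part on the filter. TNFAIP3 fell to 4.56 ± 0.474 FPKM in OCI-LY19R, against 11.7 ± 4.63 in OCI-LY19S (-1.13 ± 0.24, adjusted p = 0.0423). NFKB2 and RELB differed by 0.03 ± 0.28 and -0.23 ± 0.34 and did not pass.

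Among 17 other ligands and receptors of the family, 11 were tested in the 4 lines. Of these 5 rose and 1 fell in OCI-LY3 (2 and 2 with quantile normalization), 3 rose and 1 fell in HT, 7 rose and 1 fell in OCI-LY19, and 7 rose and 0 fell in SUDHL5. The OCI-LY3 and HT counts are near the 40.4% and 22.9% of all genes that rose there, and the shares in OCI-LY19 and SUDHL5 were 34.5% and 18.6%. In OCI-LY19R limma called 0 of 7, 5 of which had an unadjusted p below 0.05. The share of all genes at that unadjusted threshold was not taken, so the count cannot be judged against it. CD70, the ligand of CD27, had 101 ± 4.89 FPKM in treated OCI-LY19 and 14.4 ± 1.65 untreated (2.74 ± 0.15, adjusted p = 1.13e-11), and 6.97 ± 2.50 in treated OCI-LY3 and 0.727 ± 0.246 untreated. TNFSF4, the OX40 ligand, had 40.3 ± 4.81 FPKM in treated OCI-LY19 and 3.32 ± 0.685 untreated (3.26 ± 0.10, adjusted p = 1.98e-15). TNFRSF14, the receptor HVEM, rose by 1.65 ± 0.09 in OCI-LY19. TNFRSF1B, a TNF receptor, fell to 3.26 ± 1.34 FPKM in treated OCI-LY19, against 9.62 ± 0.956 untreated (-1.36 ± 0.13, adjusted p = 3.96e-08). TNFSF9, the 4-1BB ligand, rose by 3.40 ± 0.17 in OCI-LY19 and 1.01 ± 0.17 in SUDHL5. TNFSF8, the ligand of CD30, had 2.20 ± 0.209 FPKM in treated SUDHL5 and 0.372 ± 0.0455 untreated (1.22 ± 0.07, adjusted p = 1.07e-10), the line in which CD30 itself rose. CD40LG, the ligand of CD40, averaged at most 0.0265 FPKM in any group.

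Across the 24 libraries of the 4 lines, the genes with levels most like each of the 8 tested genes were found among 9921 candidates by Pearson correlation. These libraries share lines and treatment, so the values describe line differences and carry no test. BAFF was closest to SPART (r = 0.997) and GZMA (0.99), and CD30 to TMEM163 (0.997) and IL10 (0.996). APRIL was closest to MKLN1-AS (0.96) and the BAFF receptor to SLA and PLCG2 (0.98 each). LTA lay closest to LOXL2 and to its neighbour TNF (0.97 each), and LTB to TSPAN18 (0.98). CD40 and BCMA had weaker best matches, C17orf100 and SLC35E2B at 0.94 each for CD40 and RASGRP1 at 0.89 for BCMA. Among the genes themselves, LTA and LTB moved most alike (r = 0.90 over 24 libraries), and BAFF ran against the BAFF receptor (-0.85) and CD40 (-0.81).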

How the data were processed

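RNA from 30 libraries of established human lymphoma lines was enriched for poly(A) RNA and made into strand-marked libraries (NEBNext Ultra II Directional) sequenced on a NextSeq, per the labels' protocols, which call the triplicates biological. The submitters' processing notes name Trimmomatic, STAR, featureCounts and hg38. Neither versions nor the annotation or strand setting are stated there. The deposited values are FPKM per gene and library, in a table of 4 lines and a table of OCI-LY19R and OCI-LY19S that the authors normalized separately. Per the file headers, the latter also holds the authors' comparison, with a mean signal, log2 fold changes, scores (a standard error, a statistic) and p-values, and its direction was read from the FPKM values. The tool behind it is not named.

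Whole reads were recovered from the FPKM values with GENCODE 29 gene lengths, and for identifiers with the same version there all values came out whole within 0.01 read. For 15367 genes, TACI, the BAFF receptor, BCMA, CD40, LTBR and CD30 among them, the length was instead solved from the values as one that makes their reads whole, so their read counts rest on that length. PCR copies are included, so floors of 3 reads cover counting error only. Replicates were kept separate.

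limma 3.58.1 in R 4.3.3 fitted 1 mean per group to log2(FPKM + 1), with trended moderation, two-sided. Such differences understate the change of low genes. The 8 groups of the 4 lines shared 1 fit (17645 genes with at least 1 FPKM in 3 libraries) and OCI-LY19R with OCI-LY19S another (12785 genes). Interactions and moderated F tests came from the same fit. p-values were adjusted by Benjamini-Hochberg over all genes tested. The fits were checked on simulated reads with the same fixed spread for every gene and no differences between lines. These data have neither property, so error rates in them were not measured. Same-numbered deviations correlated at 0.167, 0.32 and 0.347 in HT, above every pair of other numbers there. The reported fit did not pair libraries. Alternatives were other pseudocounts, filters, scalings, voom on recovered reads, a replicate block, library-name endings as covariate, single-line fits and leaving out each library. Genes of the pathway lists were named where they passed with a change of at least 1 on the log2 scale, apart from CD40LG and the added genes of the NIK complex. The 10 genes and the lists were chosen with earlier results of these data known. Tables were handled with Python 3.11.15, numpy 2.4.6, pandas 2.3.3 and matplotlib 3.10.9.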

Additional observations from a re-analysis of the deposited data

Results flagged for a closer look

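For 5 of the 8 tested genes the response to doxorubicin differed among the 4 lines by a limma F test of the difference itself. The test was adjusted over all genes tested, of which 72.2% differed, so these genes differed no more often than genes at large. BCMA (TNFRSF17) had an adjusted p of 0.00399, with its fall in OCI-LY3 set against higher values in treated cells of the other lines. CD30 (TNFRSF8) had 1.42e-05, with its rise in SUDHL5. The BAFF receptor (TNFRSF13C) had 0.000159, with rises in OCI-LY19 and SUDHL5 and a fall in HT. APRIL (TNFSF13) had 9.18e-05, with its largest response in OCI-LY3. LTB had 0.0323, also with its largest response in OCI-LY3, and it lost the threshold under 10 of 33 alternatives, 5 of them single libraries left out and the others a pseudocount of 0.1, no filter, median-of-ratios scaling and both voom fits.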

How the results depend on the processing

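CD40, APRIL and LTB in OCI-LY3, CD40 and the BAFF receptor in OCI-LY19, and the BAFF receptor and CD30 in SUDHL5 kept their calls under every alternative run, as did all 8 differences between untreated lines where the gene was tested. Of the values for single genes, 564 kept their side of the threshold on leaving out a library, 9 gained it and 27 lost it. Under the other alternatives 419 kept it, 19 gained it, 22 lost it and 1 turned round, APRIL in OCI-LY19 with quantile normalization (-0.31). The causes were not tested.

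In HT 2 genes passed as reported, 1 with a pseudocount of 0.1, median-of-ratios scaling, voom on genes of at least 10 reads, the library-name ending as covariate or HT alone, 0 with no filter or quantile normalization, and 0 to 2 without single libraries. At an unadjusted limma p below 0.05, 4 of the 8 passed there as reported, but the share of all genes at that threshold was not taken. In OCI-LY19 4 passed with quantile normalization and 5 with voom on genes of at least 10 reads, and in SUDHL5 6 passed when fitted alone. Of all genes 9908 of 17645, 13009 of 31930 and 9010 of 17645 were called in the same fits. SUDHL5 alone rests on the spread of its own replicates, which may be technical. Response differences numbered 3 with a pseudocount of 0.1 and 3 with a filter at 5 FPKM, which also cut the untreated differences to 4 genes of the 10 and to 10242 of all genes, since fewer genes were tested. In OCI-LY19R 0 genes passed with no filter, quantile normalization, the replicate block or any 1 library left out, with BAFF at an unadjusted limma p of 0.00188 as reported. All genes called there numbered 696 as reported, 130 with no filter, 368 with a filter at 5 FPKM, 1408 with voom on genes of at least 10 reads, 276 with the replicate block and 65 to 1129 without single libraries. Without single libraries 3 to 5 of the 10 genes passed in OCI-LY3, 2 to 3 in OCI-LY19, 2 to 3 in SUDHL5 and 4 to 6 in response.

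With the replicate block 4, 3, 2 and 4 genes passed in OCI-LY3, HT, OCI-LY19 and SUDHL5, and 6 differed in response. Of 17645 genes in all, 10184, 6292, 10826 and 7375 were called in those lines with the block. Same-numbered deviations correlated at -0.0116 to 0.362 in OCI-LY3, 0.0364 to 0.355 in OCI-LY19, -0.0199 to -0.014 in SUDHL5 and -0.115 to 0.118 in OCI-LY19R and OCI-LY19S. Only in HT did every same-numbered pair exceed all others. Replicates 1 and 2 of OCI-LY19 (0.355 and 0.259) and 3 of OCI-LY3 (0.362) also exceeded the other pairs of their line (at most 0.0847 and 0.186). Same-numbered libraries of OCI-LY3 and HT, and some of OCI-LY19, share a name prefix of unstated meaning. A pairing in OCI-LY3 and OCI-LY19 is thus possible. The library-name ending was not run for untreated levels, since all SUDHL5 libraries carry 1 ending. Depth limited TACI, LTBR and, outside SUDHL5, CD30, which had at most 361 reads per group.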
